A study of Homo sapiens with 16 samples.

Results

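The core spliceosome genes examined here were 42 genes that encode proteins of the small nuclear ribonucleoprotein particles (snRNPs) and the LSM proteins, out of 18991 genes in the count table. The list names genes by function and sets no threshold on a measured value, but it was drawn up with earlier results of these data known. They comprised the 7 Sm ring genes, 8 LSM genes, 3 U1 and 2 U2 protein genes, 3 SF3A and 6 SF3B genes, 2 U2AF genes, 9 genes of the U5 and tri-snRNP and 2 genes of the Prp19 complex. The study used MOLM13 cells that stably expressed Cas9. MOLM13 is an established human line from acute myeloid leukemia (AML) and carries a KMT2A fusion. Cells carried a non-targeting guide RNA (sgLUC) or 1 guide RNA against YBX1 (sgYBX1), were kept under puromycin and blasticidin, and were harvested on day 14 after transduction. Poly(A)-selected RNA was sequenced both before fractionation (total RNA) and from heavy sucrose-gradient fractions that had been pooled (polysomal RNA), with 4 replicates in each of the 4 groups and 16 libraries in all. Every group therefore shared Cas9, the selection drugs and the time point, each guide stood for its condition alone, and no label names a clone.

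The spliceosome removes introns from pre-mRNA. It is assembled on each intron from snRNPs, which are particles of a small nuclear RNA and its proteins. In U1, U2, U4 and U5 the RNA carries a ring of Sm proteins, whereas U6 carries a ring of LSM proteins. Another LSM ring, with LSM1 in place of LSM8, acts in the cytoplasm in mRNA decapping. The U1 proteins help recognise the 5′ splice site, U2AF reads the 3′ end of the intron, and SF3A and SF3B belong to the U2 particle at the branch site. U4, U5 and U6 join as the tri-snRNP, and the Prp19 complex enters during activation. The Sm and LSM proteins are small, while several SF3B and PRPF proteins are among the larger spliceosome components. YBX1, a cold-shock domain protein, binds mRNA, and polysomal RNA is the mRNA that carries several ribosomes. The comparisons below ask whether the guide against YBX1 changed the level of these mRNAs in total RNA, in polysomal RNA, or in both. Levels are relative to the other mRNAs of a library, and amounts per cell cannot be read from them.

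Counts summed to between 38326270 and 66164414 per library, and the 42 genes took between 0.769% and 1.12% of them. Levels are given as CPM, counts scaled to one common library size with TMM factors over all 16 libraries. YBX1 itself was lower in every sgYBX1 library than in every sgLUC library of the same fraction. Its mean fell from 887 ± 21.2 to 519 ± 23.3 CPM in total RNA (SD, n = 4 each), which left 58.6%, and from 875 ± 76.1 to 645 ± 17.1 CPM in polysomal RNA, which left 73.7% (p = 0.0286 for either fraction by a two-sided exact permutation test, the smallest that 4 against 4 libraries allow). All 7 myeloid markers on a fixed list were present with at least 5 CPM. Their summed level was 3478 to 3700 CPM in sgLUC and 2641 to 2741 CPM in sgYBX1 total RNA, and 1554 to 1777 and 1156 to 1264 CPM in polysomal RNA, so it moved with the guide, and its part in the results below was not tested. The erythroid and megakaryocyte markers summed to at most 0.502 CPM in any library. Of 5 epithelial and stromal markers 1, PECAM1, averaged over 5 CPM (65.0). In bulk libraries of this kind a change in the share of cells that express a gene and a change per cell cannot be told apart.

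Of the 42 genes, 38 had a mean of at least 5 CPM and are described below. The other 4 were close to 0 in every library. LSM2 had at most 1 read, PRPF8 at most 16, PRPF31 at most 37 and U2AF1 between 21 and 119. All 20 protein-coding genes within 100 kb of LSM2 on chromosome 6 also averaged at most 10 reads, as did 9 of 12 around PRPF31 on chromosome 19. The same held for 4 of 9 around PRPF8 on chromosome 17 and for 1 of 3 around U2AF1. The share of all genes with so few reads is not given here. A near-identical copy of U2AF1 on chromosome 21, listed as U2AF1L5, had at most 7 reads. PRPF31 and U2AF1 passed the expression filter but were called in no comparison, and nothing is said here about the levels of these 4 mRNAs. Exons of 17 of the 42 genes overlap those of another annotated gene, for 15 of them on the opposite strand, and the strand setting of the counting is not given in the sources used here. On their own strand SNRNP27 shares exonic sequence with MXD1, and SNRPB and SNRPD3 each with 1 other gene. In addition, 64 pseudogenes are named after 11 of the genes, among them 20 after SNRPG, 18 after SNRPC and 9 after SNRPE, so the reads of these 3 could be split between copies.

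Per kilobase of exon, the members differed widely in the total RNA of sgLUC cells. Exon length here joins the exons of all transcripts of a gene, whether or not the cells use them. SNRPB, which encodes the Sm B protein, had the highest level (348 ± 13.2 CPM per kb, SD, n = 4), followed by LSM7 (205 ± 11.8) and SNRNP70 (183 ± 14.8), the U1-70K protein. The lowest were LSM8 (7.97 ± 0.403), which defines the nuclear LSM ring, LSM6 (8.91 ± 0.263) and SNRNP27 (12.2 ± 0.801), a tri-snRNP protein. Within the Sm ring, which contains 1 copy of each protein, the level per kb ranged from 19.7 ± 1.10 for SNRPD1 to 348 ± 13.2 for SNRPB. The joined exon length was 4909 nucleotides for SNRPD1, 1154 for SNRPB and 6210 for LSM8, so the order depends on the annotation. Without division by length, SNRPE was the lowest Sm gene (22.6 CPM), SNRPD1 had 96.8 CPM and SNRPB was again the highest (401 CPM). SNRPE (23.0 ± 1.35) and SNRPG (22.5 ± 0.564) lay next to each other and did not differ beyond their spread.

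The guide against YBX1 left the total RNA of these genes almost where it was. Only 2 of the 38 were called, both lower, against 16.8% of the 12214 genes tested in total RNA, of which 7.62% were called higher and 9.15% lower (edgeR quasi-likelihood test, two-sided, Benjamini-Hochberg adjusted p under 0.05). The first was SNRPG, the Sm G protein, with 35.9, 34.3, 34.1 and 34.1 CPM in the sgLUC libraries and 28.7, 28.99, 28.02 and 31.5 CPM in the sgYBX1 libraries. The groups did not overlap, and the log2 fold change was −0.23 ± 0.04 (SE; adjusted p = 0.00131). The second was SNRPD3, the Sm D3 protein, with 155, 148, 155 and 155 CPM against 139, 144, 135 and 146 CPM. The groups were separate for 4 of the 38 genes in total RNA, against 17.9% of all genes tested. The log2 fold change of SNRPD3 was −0.11 ± 0.03 (edgeR adjusted p = 0.0215), and it was no longer called with library totals as the scale (0.0747) or without total sgLUC replicate 3 or 4 or total sgYBX1 replicate 1 or 3 (adjusted p up to 0.0969). Neither was called when the spread was shared with the polysomal libraries in 1 fit of all 16. The 38 log2 fold changes lay between −0.23 and 0.12 with a median of −0.03, beside a median of 0.00 for all genes tested. SNRNP70 had the highest value (0.12 ± 0.05, adjusted p = 0.0943).

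In polysomal RNA the same genes moved apart. Of the 38, 5 were higher and 9 lower with sgYBX1, which is 36.8% of them, against 22.6% of the 11742 genes tested and 27.5% of the tested genes with at least 5 CPM. The higher ones were SNRNP27, CDC5L, SF3B2, SNRPB2 and SNRNP70, and the lower ones were SF3B6, SNRPE, LSM6, SNRPG, SNRNP40, U2AF2, SNRPC, LSM3 and SNRPB. Across all genes 12.5% were called higher and 10.1% lower. Of these 14 calls 7, those of SNRNP27, CDC5L, SF3B2, SNRPB2, SF3B6, SNRPE and LSM6, held in each of 7 other analyses and in each of 8 fits that left out 1 library. The other 7 did not. With library totals in place of TMM factors the median of all genes went from −0.02 to −0.19, 4 members were higher and 18 lower, and the calls among all genes went from 55.3% higher to 26.0% higher. The number of lower members was 3 without polysomal sgLUC replicate 4, 5 without polysomal sgYBX1 replicate 2, 4 without replicate 3 or 4 of that group, and between 7 and 11 in the other fits of this kind. In sgLUC cells the polysomal libraries varied more than the total RNA libraries, with a biological coefficient of variation over all genes of 0.220 in polysomal and 0.0562 in total RNA.

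**Figure D1:**
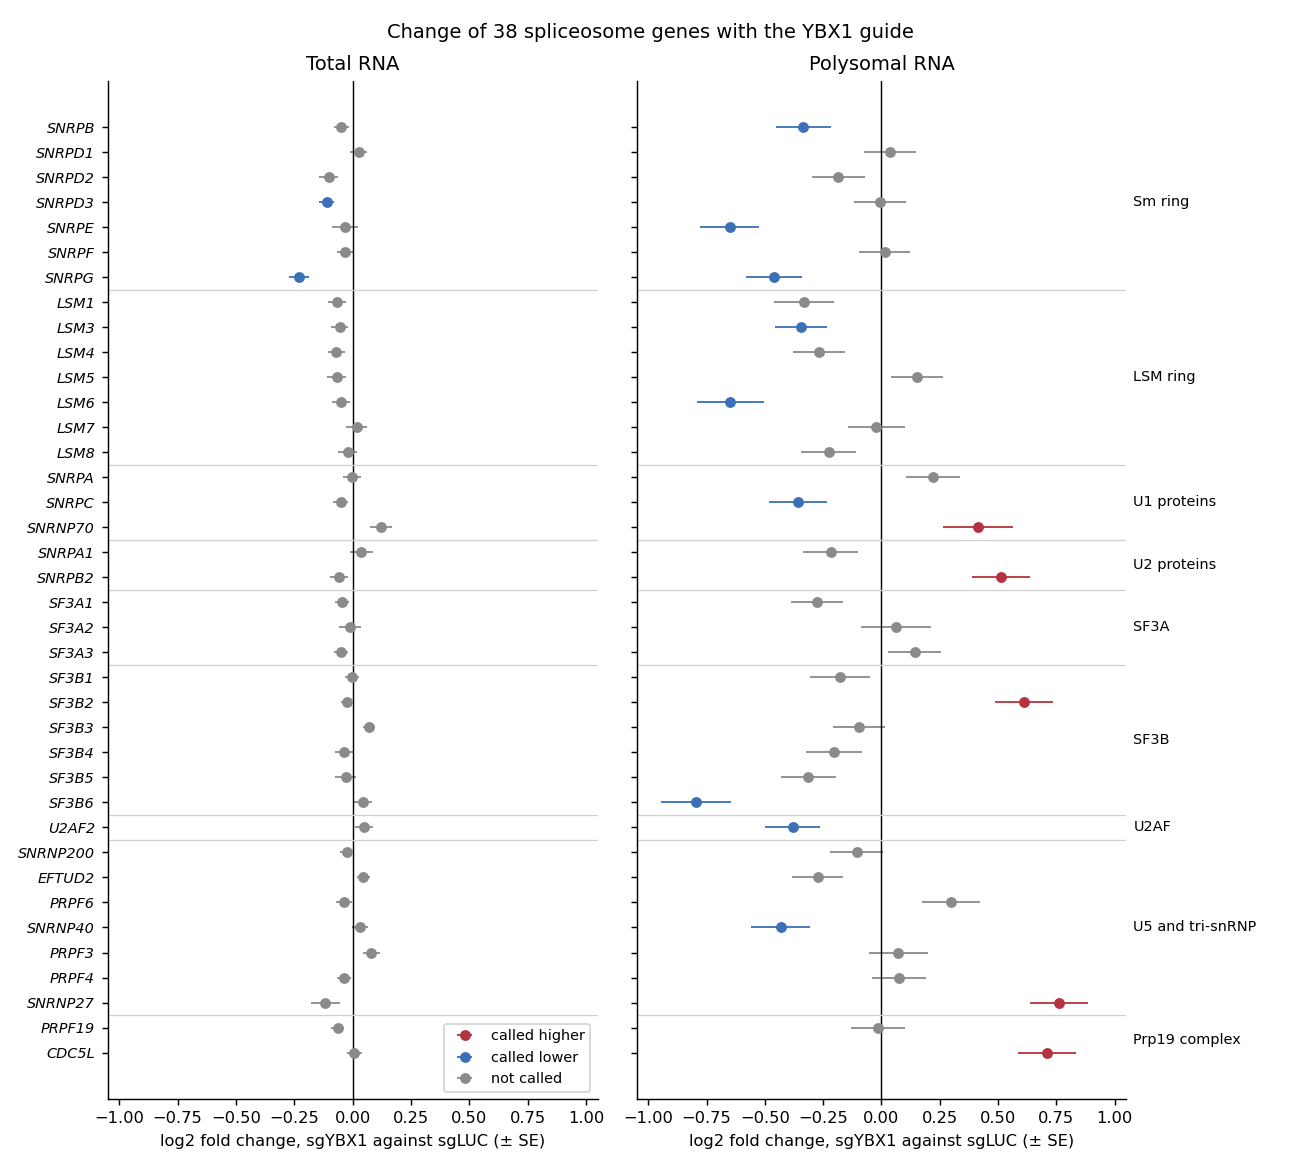
Log2 fold change of sgYBX1 against sgLUC for the 38 measured genes in total RNA (left) and polysomal RNA (right), ordered by role; points are edgeR estimates, bars are standard errors, and colours mark genes called higher, called lower or not called. In total RNA the points lie between −0.23 and 0.12, whereas in polysomal RNA they spread from −0.79 for SF3B6 to 0.76 for SNRNP27.

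The members that went up and those that went down furthest differed in a feature of their coding sequence, the most purine-rich stretch it holds. The 60-nucleotide coding window with the highest share of A and G is printed for 4 of the 5 members called higher and the 3 lowest of those called lower, because the comparison of sequence and polysomal change further below turns on it. Windows are from the transcript with the longest coding sequence in GENCODE release 29 on GRCh38, 5′ to 3′ on the coding strand, and capitals mark unbroken runs of at least 6 purines.
SNRNP27 (chr2:69896481-69896540, plus strand, exon 3 of 5): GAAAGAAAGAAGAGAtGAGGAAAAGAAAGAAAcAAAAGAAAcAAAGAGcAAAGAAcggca
CDC5L (chr6:44404022-44406376, plus strand, across exons 6 and 7 of 16): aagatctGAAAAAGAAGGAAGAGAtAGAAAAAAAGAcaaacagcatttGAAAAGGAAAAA
SF3B2 (chr11:66058397-66058880, plus strand, across exons 9 and 10 of 22): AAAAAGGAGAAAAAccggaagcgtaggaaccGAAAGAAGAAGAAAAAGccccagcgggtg
SNRNP70 (chr19:49090331-49090502, plus strand, across exons 3 and 4 of 10): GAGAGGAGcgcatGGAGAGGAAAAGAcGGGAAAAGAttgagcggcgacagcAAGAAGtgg
SF3B6 (chr2:24067785-24067844, minus strand, exon 4 of 4): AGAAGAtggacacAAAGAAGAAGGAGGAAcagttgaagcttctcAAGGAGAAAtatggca
SNRPE (chr1:203865079-203869895, plus strand, across exons 4 and 5 of 5): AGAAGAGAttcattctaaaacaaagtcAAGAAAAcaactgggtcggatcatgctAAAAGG
LSM6 (chr4:146187302-146187361, plus strand, exon 3 of 4): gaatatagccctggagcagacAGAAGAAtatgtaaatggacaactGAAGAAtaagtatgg
The purine share of the window was 90% in SNRNP27, 83.3% in CDC5L, 81.7% in SNRNP70, 80% in SF3B2 and 78.3% in SNRPB2, the lowest of the 5, whose sequence is not shown. It was 75% in SF3B6, 70% in LSM6 and 66.7% in SNRPE, and the highest among all 9 lower members was 76.7%. The longest unbroken purine run in the printed windows was 16 in SNRNP27, 17 in CDC5L and SF3B2 and 13 in SNRNP70, and 16, 7 and 8 in SF3B6, LSM6 and SNRPE, so the run length of SF3B6 lay within the range of the higher members.

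SNRNP27, the 27 kDa protein of the U4/U6.U5 tri-snRNP, had the largest rise among the members. It had 225, 268, 258 and 184 CPM in the polysomal sgLUC libraries and 384, 346, 405 and 437 CPM in the polysomal sgYBX1 libraries, against 20.6 to 23.9 and 17.2 to 21.5 CPM in total RNA. All 4 sgYBX1 libraries were above all 4 sgLUC libraries in polysomal RNA. The rise was 1.69-fold (log2 fold change 0.76 ± 0.12, edgeR adjusted p = 8.3e-05).

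CDC5L, the scaffold of the Prp19 complex, had 457, 428, 595 and 417 CPM with sgLUC and 778, 648, 805 and 845 CPM with sgYBX1 in polysomal RNA. The groups did not overlap, with sgLUC replicate 3 the highest of its group, and the rise was 1.63-fold (0.71 ± 0.13, adjusted p = 0.000176, edgeR). Its total RNA was 121 ± 5.29 and 121 ± 4.37 CPM. The other member of that complex, PRPF19, a ubiquitin ligase, had a log2 fold change of −0.02 ± 0.12 and was not called (adjusted p = 0.943, edgeR).

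SF3B is the U2 subcomplex that holds the branch site, and the 6 of its genes examined here went in both directions. A further SF3B subunit, PHF5A, is counted below with other spliceosome proteins. It was lower in polysomal RNA (−0.53 ± 0.12, edgeR adjusted p = 0.00159). SF3B2, which with SF3B4 contacts RNA near the branch site, had 687, 696, 619 and 515 CPM with sgLUC and 976, 838, 902 and 1103 CPM with sgYBX1. Every sgYBX1 library was higher, and the rise was 1.53-fold (0.61 ± 0.12, edgeR adjusted p = 0.000762). SF3B6, also called p14, which lies close to the branch-point adenosine, had 46.4, 32.4, 38.2 and 49.2 CPM with sgLUC and 28.3, 26.9, 20.4 and 19.4 CPM with sgYBX1. The groups were separate here too, and 57.6% of the control level was left (−0.79 ± 0.15, adjusted p = 0.000318, edgeR), the lowest value of the 38. In total RNA SF3B6 was 49.5 ± 2.39 and 50.7 ± 2.34 CPM. SF3B1, SF3B3, SF3B4 and SF3B5 had values between −0.31 and −0.10 and were not called. SF3B5 was the nearest of these to the threshold (−0.31 ± 0.12, adjusted p = 0.0594), with 885, 902, 803 and 835 CPM against 836, 611, 640 and 652 CPM and sgYBX1 replicate 1 inside the range of sgLUC. The 3 SF3A genes lay between −0.28 and 0.14 and were not called.

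Of the 7 Sm genes 3 were called, all lower, with a median over the 7 of −0.18. This is 42.9% of them, against 27.5% of all tested genes with at least 5 CPM. Of those with coding sequences under 600 nucleotides 34.3% were called, with a median of −0.23. SNRPE, the Sm E protein, had 91.4, 74.1, 70.03 and 102 CPM with sgLUC and 53.5, 56.3, 51.6 and 52.5 CPM with sgYBX1. Replicates 1 and 4 of sgLUC were above replicates 2 and 3, and all 4 were above every sgYBX1 library. Its log2 fold change was −0.65 ± 0.13 (adjusted p = 0.000428, edgeR), which left 63.7%. SNRPG, its neighbour in the ring, had 251, 197, 209 and 284 CPM against 171, 179, 172 and 157 CPM, also with sgLUC replicates 4 and 1 highest (−0.46 ± 0.12, adjusted p = 0.00636, edgeR), and lost the call without polysomal sgLUC replicate 4 (adjusted p = 0.0697). SNRPB had −0.33 ± 0.12 with overlapping groups (adjusted p = 0.0388, edgeR), and lost its call without polysomal sgLUC replicate 2 or 4 or polysomal sgYBX1 replicate 2, 3 or 4 (adjusted p up to 0.159). SNRPD1, SNRPD2, SNRPD3 and SNRPF lay between −0.18 and 0.04. SNRPD3, lower in total RNA, had 196, 225, 193 and 178 CPM against 200, 198, 198 and 188 CPM in polysomal RNA, which is a log2 fold change of −0.00 ± 0.11.

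Of the 7 measured LSM genes 2 were called, both lower, with a median over the 7 of −0.27. This is 28.6% of them, against 27.5% of all tested genes with at least 5 CPM. Of those with coding sequences under 600 nucleotides 34.3% were called, 324 of 1095 lower, with a median of −0.23. LSM6, part of both LSM rings, had 27.7, 23.1, 24.0 and 33.2 CPM with sgLUC and 19.1, 18.1, 14.9 and 16.1 CPM with sgYBX1. The groups were separate, again with sgLUC replicates 1 and 4 highest, and the log2 fold change was −0.65 ± 0.14 (adjusted p = 0.00148, edgeR), which left 63.8%. LSM3 had −0.35 ± 0.11 (adjusted p = 0.0253, edgeR) with separate groups, and was not called without polysomal sgLUC replicate 2 or 4 or polysomal sgYBX1 replicate 3 or 4 (adjusted p up to 0.109). LSM1, found only in the cytoplasmic ring, had −0.33 ± 0.13 (adjusted p = 0.0625), and LSM8, found only in the nuclear ring, had −0.23 ± 0.12 (adjusted p = 0.172). LSM5 had the highest value of the ring (0.15 ± 0.11, adjusted p = 0.344).

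The U1 and U2 proteins also split. SNRPB2, the U2-B″ protein that binds U2 RNA, had 1332, 1369, 1905 and 1435 CPM with sgLUC and 2287, 1810, 2239 and 2204 CPM with sgYBX1 in polysomal RNA. The rise was 1.43-fold (0.51 ± 0.12, edgeR adjusted p = 0.00341), and sgLUC replicate 3 lay above sgYBX1 replicate 2. Its partner SNRPA1, the U2-A′ protein, had −0.22 ± 0.12 (adjusted p = 0.194). SNRNP70 had 917, 1020, 1828 and 1391 CPM against 1811, 1478, 1758 and 1755 CPM. Replicate 3 of sgLUC was above every sgYBX1 library, the log2 fold change was 0.41 ± 0.15 (adjusted p = 0.0473, edgeR), and the call was lost in 6 of 8 fits without 1 library (all but those without polysomal sgLUC replicate 3 or sgYBX1 replicate 2, adjusted p up to 0.150) and with RLE factors or library totals. SNRPC, the U1-C protein, had −0.36 ± 0.12 with overlapping groups (adjusted p = 0.0366, edgeR), and SNRPA, the U1-A protein, had 0.22 ± 0.12 (adjusted p = 0.183). SNRPC was not called without polysomal sgLUC replicate 1 or 4 or polysomal sgYBX1 replicate 2, 3 or 4 (adjusted p up to 0.178).

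Among the U5 and tri-snRNP genes SNRNP27 was higher and SNRNP40 lower. SNRNP40, a U5 protein, had −0.43 ± 0.13 (adjusted p = 0.0145, edgeR), with overlapping groups. U2AF2, which binds the polypyrimidine tract, had −0.38 ± 0.12 with separate groups (adjusted p = 0.0188, edgeR). Both lost their call without polysomal sgLUC replicate 4 or polysomal sgYBX1 replicate 2, 3 or 4, and SNRNP40 also without polysomal sgLUC replicate 1 (adjusted p up to 0.118). EFTUD2, the U5 GTPase, had −0.27 ± 0.11 with separate groups and was not called (adjusted p = 0.0695). PRPF6, which bridges U5 and the U4/U6 particle, had 955, 1145, 1445 and 1044 CPM against 1454, 1226, 1464 and 1457 CPM (0.30 ± 0.12, adjusted p = 0.0838). Replicate 3 of sgLUC and replicate 2 of sgYBX1 made these groups overlap. SNRNP200, the U5 helicase, PRPF3 and PRPF4 lay between −0.11 and 0.08. Over all 38 genes the polysomal groups were separate for 12, of which 3 were higher and 9 lower, against 23.3% of all genes tested.

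**Figure D2:**
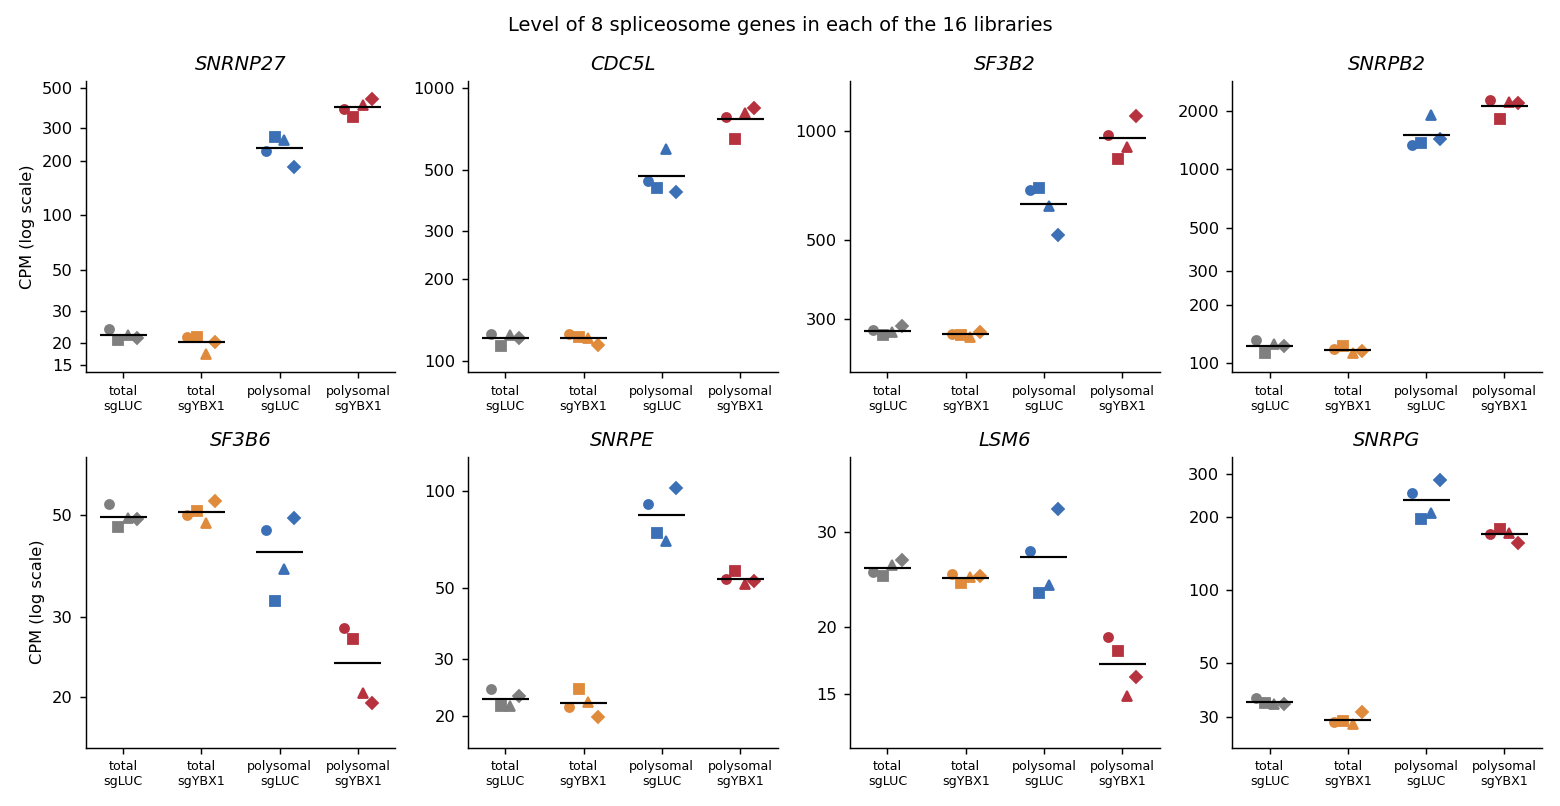
Level in CPM (log scale) of SNRNP27, CDC5L, SF3B2, SNRPB2, SF3B6, SNRPE, LSM6 and SNRPG in each of the 16 libraries; symbols mark replicates 1 to 4 (circle, square, triangle, diamond) and lines mark group means. In the upper row the polysomal sgYBX1 libraries lie above the polysomal sgLUC libraries, apart from an overlap for SNRPB2, and in the lower row they lie below, while the total RNA groups are close together.

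The polysomal change was then compared with the total change in 1 fit of all 16 libraries. For 10 of the 38 genes the polysomal change differed from the total change, against 16.7% of the 12517 genes tested (9.84% higher and 6.89% lower) and 22.0% of those with at least 5 CPM, beside 26.3% of the members. It was more positive for SNRNP27 (0.88 ± 0.15, adjusted p = 0.00053), CDC5L (0.70 ± 0.14, 0.0017), SF3B2 (0.63 ± 0.13, 0.00182) and SNRPB2 (0.57 ± 0.14, 0.00749). It was more negative for SF3B6 (−0.84 ± 0.17, 0.00213), SNRPE (−0.62 ± 0.14, 0.00525), LSM6 (−0.60 ± 0.15, 0.0075), SNRNP40 (−0.46 ± 0.14, 0.0259), U2AF2 (−0.43 ± 0.12, 0.0157) and EFTUD2 (−0.32 ± 0.09, 0.0228). SNRPG, lower in both fractions, had a difference of −0.23 ± 0.13 that was not called (adjusted p = 0.236). Of the 10 calls, 8 held in all 7 other analyses and all 16 fits without 1 library. EFTUD2 lost its call when either of the total RNA libraries sgLUC replicate 3 and sgYBX1 replicate 1, or polysomal sgYBX1 replicate 4, was left out (adjusted p up to 0.0594). For SNRNP40 the same held for replicates 2 and 3 of total sgLUC, replicate 2 of total sgYBX1, replicate 1 of polysomal sgLUC and replicate 3 of polysomal sgYBX1 (adjusted p up to 0.0583). Because polysomal libraries vary more than total RNA libraries, a fit with weights per group was also run, and it called 5 members higher and 9 lower. Scaled by library totals, 4 were higher and 18 lower.

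Within sgLUC cells, the members differed far more between fractions than between guides. In polysomal against total RNA 25 of the 38 were higher and 9 lower, where 81.2% of all 12046 genes tested were called (38.9% higher and 42.3% lower). Of those with at least 5 CPM 87.7% were called, beside 89.5% of the members. SNRPB2 had the highest log2 fold change (3.63), rising from between 112 and 131 CPM in total RNA to between 1332 and 1905 CPM in polysomal RNA. SNRNP27 followed with 3.43 and SF3B5 with 2.91. PRPF6 rose from between 154 and 168 to between 955 and 1445 CPM (2.86). At the other end SF3B1, the HEAT-repeat protein of the branch site that is mutated in myeloid neoplasms, had 372, 330, 361 and 346 CPM in total and 88.2, 62.1, 71.7 and 86.2 CPM in polysomal RNA (−2.18). SF3B3 went from 406, 379, 394 and 402 to 103, 125, 118 and 112 CPM (−1.77), and SF3A1 from 210, 203, 202 and 215 to 74.1, 68.7, 66.6 and 65.8 CPM (−1.58). None of these 7 genes had overlapping groups, which held for 34 of the 38 members and for 78.2% of all genes tested.

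In sgYBX1 cells 25 of the 38 were higher and 12 lower in polysomal RNA, where 86.1% of 12154 genes tested were called (40.4% higher and 45.6% lower), and the groups were separate for 37 of them, against 83.2% of all genes. With at least 5 CPM 92.4% of genes were called, beside 97.4% of the members. The highest were SNRNP27 at 4.27, SNRPB2 at 4.16 and PRPF6 at 3.15, and the lowest SF3B1 at −2.39, SF3B3 at −1.98 and SF3A1 at −1.85. With sgYBX1 the polysomal level of SF3B1 was 76.7, 74.3, 58.5 and 60.9 CPM, that of SF3B3 106, 114, 109 and 96.6 CPM, and that of SF3A1 56.1, 52.5, 61.8 and 55.3 CPM. LSM6, SF3B6 and U2AF2 were not called between fractions in sgLUC cells (0.08, −0.24 and −0.06). They were lower in polysomal RNA of sgYBX1 cells (−0.55, −1.11 and −0.53). For these members the interaction given above had the values −0.60, −0.84 and −0.43. The scale between fractions rested on the TMM factors, 1.35 to 1.43 in total and 0.667 to 0.798 in polysomal libraries. With library totals alone the median of all genes moved from −0.08 to −0.95 in sgLUC and from −0.14 to −1.16 in sgYBX1 cells, 19 members were higher and 14 lower in sgLUC and 16 and 19 in sgYBX1 cells, and SNRPD3 changed sign, from 0.39 to −0.48 and from 0.45 to −0.57.

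Short and long members lay on different sides of that scale. The 14 measured genes of the short set (Sm and LSM, coding lengths 240 to 720 nucleotides) had a median log2 fold change between fractions of 1.69 in sgLUC and 1.196 in sgYBX1 cells. The 7 measured genes of the long set (SF3B1, SF3B2, SF3B3, PRPF3, PRPF4, PRPF6 and PRPF19, 1512 to 3912 nucleotides) had −0.40 and −0.33. All genes showed an order by length as well, with medians in sgLUC cells of 0.89 for coding sequences under 600 nucleotides, 0.31 for 600 to under 1200, −0.29 for 1200 to under 2400 and −0.70 for 2400 or more. In sgYBX1 cells these were 0.72, 0.20, −0.36 and −0.60. The members had medians in sgLUC cells of 1.92 for the 17 under 600 nucleotides and 1.082 for the 5 of 600 to under 1200, −0.40 for the 9 of 1200 to under 2400 and −0.40 for the 7 of 2400 or more. The exceptions to the order were wide. Of the 16 members with at least 1200 nucleotides 5 were higher in polysomal RNA. They were PRPF6, SNRNP70, CDC5L, SF3A3 and SF3B2 (2.86, 2.10, 1.98, 1.39 and 1.19). Of the 22 shorter members 20 were higher, while SF3B6, at 375 nucleotides, and LSM6, at 240, were not called (−0.24 and 0.08).

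**Figure D3:**
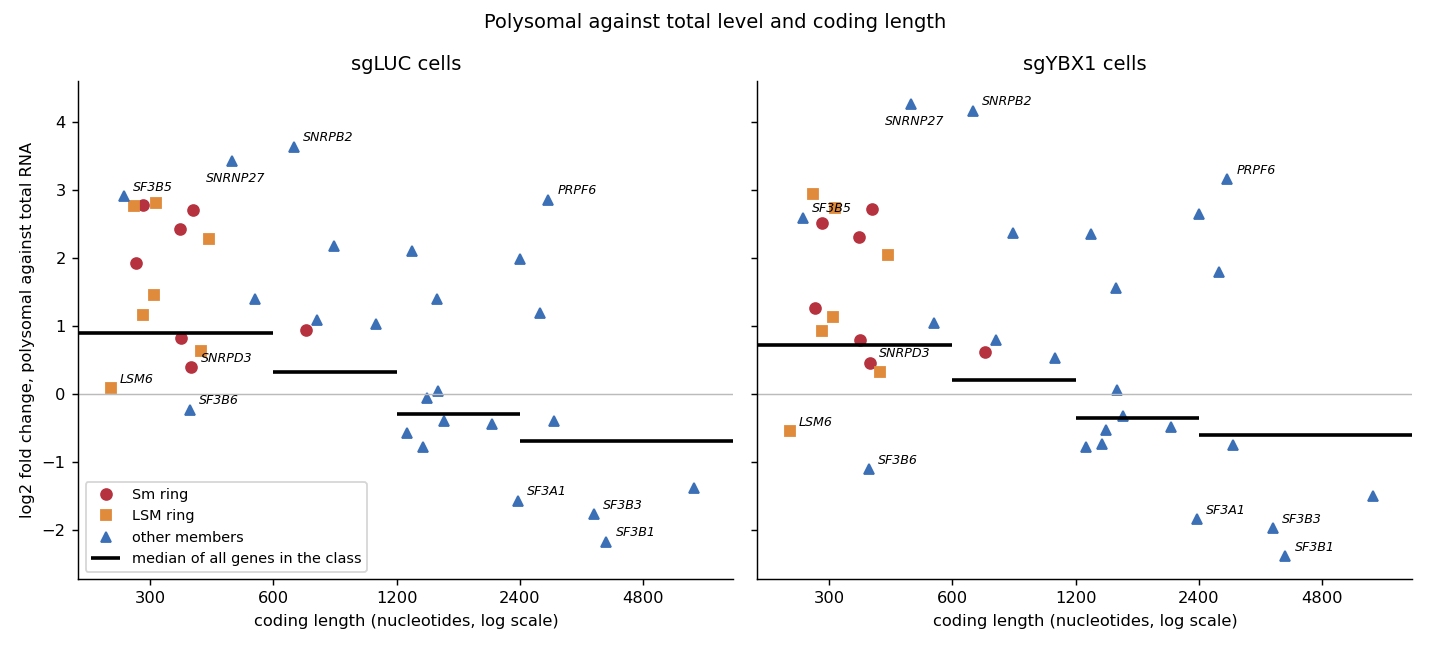
Log2 fold change of polysomal against total RNA (y axis) and coding length in nucleotides (x axis, log scale) for the 38 measured genes in sgLUC cells (left) and sgYBX1 cells (right); red circles are Sm, orange squares LSM and blue triangles other members, and black lines are the medians of all genes with at least 5 CPM in 4 length classes. The class medians fall from 0.89 to −0.70 in sgLUC and from 0.72 to −0.60 in sgYBX1 cells, and members scatter from −2.39 to 4.27 around them.

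Between guides, the short and the long set moved relative to each other in polysomal RNA. The mean log2 CPM of the short set minus that of the long set was 0.48, 0.40, 0.39 and 0.60 in the 4 polysomal sgLUC libraries and 0.19, 0.15, 0.12 and 0.03 in the polysomal sgYBX1 libraries. All sgYBX1 libraries were below all sgLUC libraries, and the means of 0.47 ± 0.10 and 0.13 ± 0.07 (SD, n = 4) were 0.34 apart. In total RNA the same score was −1.28, −1.28, −1.31 and −1.28 with sgLUC and −1.37, −1.32, −1.38 and −1.32 with sgYBX1, a gap of 0.06. These groups were separate too, although narrowly, with −1.315 as the highest sgYBX1 and −1.312 as the lowest sgLUC value. In such a score the scaling of a library nearly cancels. No p-value is given for it, since its members were chosen with earlier results known. The median polysomal change was −0.25 for the short set and 0.07 for the long set, and with library totals both were below 0 (−0.41 and −0.09). Of the short set 5 of 14 were called, all lower, and of the long set 1 of 7, SF3B2, which was higher. Among all genes the median polysomal change was −0.23 under 600 nucleotides (52 higher and 324 lower of 1095), −0.12 for 600 to under 1200, −0.02 for 1200 to under 2400 and 0.13 for 2400 or more (539 higher and 62 lower of 1991), beside which the 2 sets can be read. The 4 medians of the total change were between −0.03 and 0.01.

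**Figure D4:**
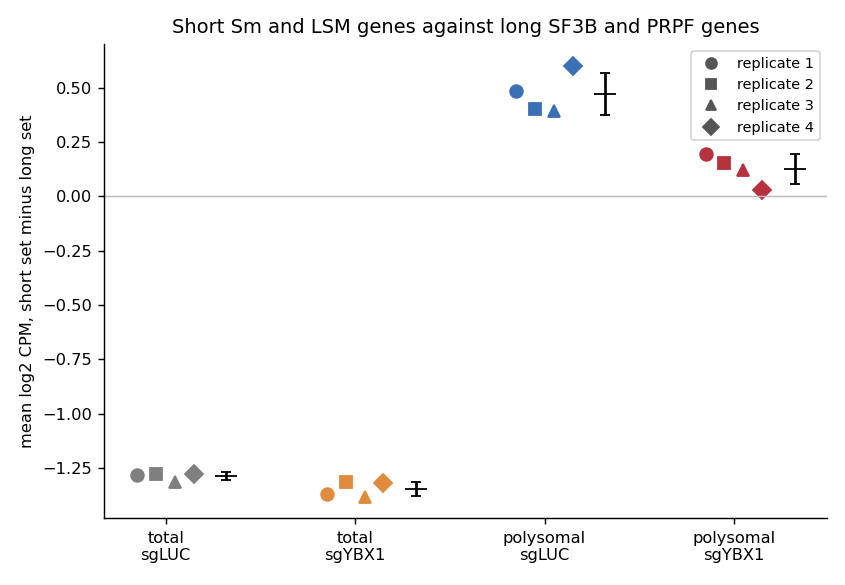
Mean log2 CPM of the 14 measured Sm and LSM genes minus that of 7 long SF3B and PRPF genes (y axis) in each library of the 4 groups; symbols mark replicates, and the bar beside each group is its mean ± SD. In polysomal RNA the sgYBX1 libraries (0.03 to 0.19) lie below the sgLUC libraries (0.39 to 0.60), and in total RNA both groups lie between −1.38 and −1.28.

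The coding lengths of the members that rose and of those that fell overlapped, and their purine-rich windows did not. The window was chosen after the values had been seen, beside other sequence features given below, and it is given as a description. The 5 higher members had coding lengths of 474 to 2685 nucleotides (median 1311) and the 9 lower members 240 to 1425 (median 375). Their purine windows were 78.3% to 90% (median 81.7%) and 66.7% to 76.7% (median 73.3%). The directions did not overlap at this window length, although their nearest values lay close. A longer coding sequence offers more windows from which the highest is taken, so window and coding length are not independent. With windows of 120 nucleotides the directions were also apart (70.8% to 82.5% and 61.7% to 68.3%), but with 30 nucleotides they met, at 86.7% in both SNRNP70 and SF3B6. Of the members not called, 6 also had windows of 80% or more (PRPF3, SF3B3, SF3A1, SF3A3, SNRPD1 and PRPF6), so a purine-rich window did not always go with a rise, and SF3A1, with 85%, had a polysomal change of −0.28 ± 0.11 and separate groups. Windows of at least 80% were held by 26.3% of the 38 genes and by 18.1% of 9048 genes with at least 5 CPM. Across the 38 genes the Spearman correlation of the window with the polysomal change was 0.47 and across the 9048 genes 0.38. It was 0.38 and 0.31 for coding length. For the purine share of the whole coding sequence it was 0.07 and 0.21. The A share of that sequence gave −0.01 and 0.21, and its GC share 0.11 and −0.11. With the total change the window gave 0.18 and 0.03. Genes are not independent replicates, all points share the same 8 libraries, and no p-value is given.

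Over all genes the median polysomal change was higher in each successive class of window. The median was −0.17 for the 2414 genes with a window under 70%, −0.11 for 70% to under 75%, −0.01 for 75% to under 80%, 0.21 for 80% to under 85% and 0.48 for the 656 genes at 85% or more. In this last class 61.4% of the genes were called higher and 1.07% lower, and in the first 5.26% and 20.5%. The members did not rise in this order. Their medians in the same classes were −0.23, −0.15, −0.22, 0.41 and 0.14, over 5, 12, 11, 5 and 5 genes. The correlation across genes was 0.17 among those with coding sequences under 600 nucleotides, 0.23 for 600 to under 1200, 0.30 for 1200 to under 2400 and 0.43 for 2400 or more. It was 0.31, 0.38, 0.36 and 0.37 when each polysomal sgYBX1 library was taken alone against the mean of sgLUC. Over the 38 members it was 0.40, 0.44, 0.50 and 0.49. These values share the sgLUC mean and are not independent of each other.

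**Figure D5:**
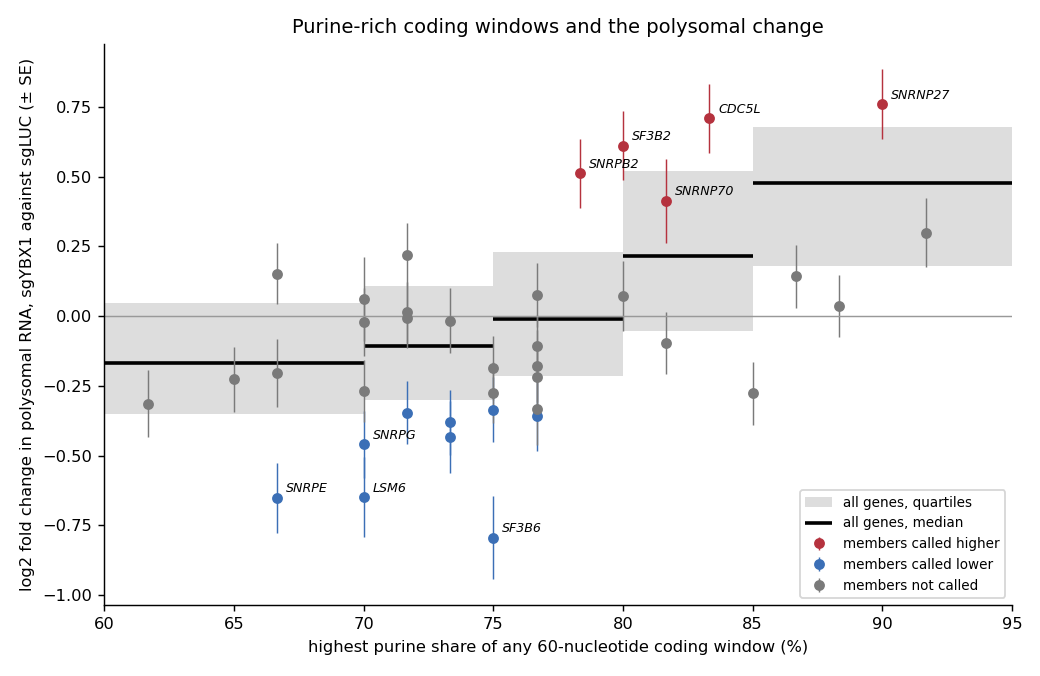
Polysomal log2 fold change of sgYBX1 against sgLUC with its standard error (y axis) and the highest purine share of any 60-nucleotide coding window (x axis, in percent) for the 38 measured genes; black lines and grey bands are the medians and quartiles of all genes with at least 5 CPM in 5 classes, of which the first and last also hold genes beyond the axis. Class medians rise from −0.17 to 0.48, and the 5 members called higher have windows of 78.3% or more while the 9 called lower have 76.7% or less.

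Other genes of the splicing pathway were counted in the same polysomal comparison, where 12.5% of all genes tested were higher and 10.1% lower, and 27.5% of those with at least 5 CPM were called. These lists, too, were drawn up with earlier results known. Of 47 measured genes for other spliceosome proteins 19 were higher and 4 lower, with a median of 0.23. They ranged from SNW1 (1.01 ± 0.13), a component that joins the activated spliceosome, to PRPF39 (−0.57 ± 0.20). Of 7 measured genes specific to the minor spliceosome, which removes a rare class of introns, 6 were higher and 1 lower, with a median of 0.52. RNPC3, which binds U12 RNA, was highest (0.75 ± 0.14) and SNRNP25 lowest (−0.46 ± 0.11). Of 14 measured genes for snRNP assembly 4 were higher, led by TGS1 (0.81 ± 0.12), which modifies the cap of snRNAs, and 2 were lower, with GEMIN6 lowest (−0.46 ± 0.13). The median of these 14 was −0.23, and 9 of them were below 0. Of 14 measured LSM relatives and decapping genes 1 was called, and it was lower, LSM10 (−0.64 ± 0.13), an Sm-like protein of the U7 particle, and the median was −0.01. In total RNA, where 16.8% of all genes were called, the calls on these lists were WDR77 (0.13), a subunit of the methylosome that modifies Sm proteins, LUC7L (0.18) and RBM17 (0.10), which were higher, and PHF5A (−0.19), SLU7 (−0.13) and SNRNP25 (−0.27), which were lower. The lists share their libraries with the core genes and were not compared with them by a test.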

How the data were processed

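RNA sequencing counts of 16 libraries were analysed. The authors selected polyadenylated RNA, sequenced 150 bp read pairs and, per the submitters' processing notes, processed them on GRCh38 with featureCounts 2.0.1, STAR 2.7.8a, DESeq2 1.30.0 and Trimmomatic 0.36.5; annotation and strand setting are not given in the sources used here. The deposited values are raw read counts per gene without normalization. Of the counts from 1 to 39, 63.5% in total and 60.8% in polysomal RNA were even numbers. The cause of this excess was not tested, and the number of independent fragments may be below the counts. The symbol column of the table matched the identifier beside it in 10 rows, so Entrez identifiers were used and named by the authors' gene table (17521) or RefSeq (1461). Columns of the authors' own fold changes and p-values were not used. The deposited gene effect score comes from a public CRISPR screen of MOLM13.

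Each contrast was fitted on the counts of its own groups with edgeR 4.0.16 in R 4.3.3 (filterByExpr, TMM, quasi-likelihood test, two-sided, Benjamini-Hochberg over all genes tested, called at an adjusted p under 0.05). Log2 CPM used a prior count of 2. Precision follows from 4 replicates and at most 38326270 to 66164414 independent counts per library. No pair of replicates agreed within the sampling noise of independent counts, with a lowest chi-square per degree of freedom of 3.97. The study describes 4 replicate cell cultures, and p-values measure the spread between these samples. Alternatives were RLE factors, library totals, 2 other expression filters, DESeq2 1.42.0, a replicate block, 1 fit of all 16 libraries, limma 3.58.1 voom with weights per group, and leaving out each library. The procedure was also run on simulated data in which all but a random set of genes had equal means in every group. Such data cannot test the scaling between fractions. Coding lengths, positions and windows are from GENCODE 29 (PRPF6 has an incomplete coding sequence there). Values in every library are given for the 3 highest and 3 lowest called members per contrast, and other lists by their highest and lowest called genes. SNRNP70, RBM17, SLU7 and the polysomal value of PHF5A were added after their values were seen. Members and lists were chosen with earlier results of these data known. Figures were drawn with matplotlib 3.10.9. One marker list and 1 sequence are not reported here.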

Additional observations from a re-analysis of the deposited data

Results flagged for a closer look

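For 10 of the 38 measured members (26.3%) the change with sgYBX1 differed between polysomal and total RNA by the interaction test of edgeR. Of all genes tested 16.7% were called in this test, and of those with at least 5 CPM 22.0%. The polysomal minus the total log2 fold change was 0.88 for SNRNP27, 0.70 for CDC5L, 0.63 for SF3B2 and 0.57 for SNRPB2. It was −0.84 for SF3B6, −0.62 for SNRPE, −0.60 for LSM6, −0.46 for SNRNP40, −0.43 for U2AF2 and −0.32 for EFTUD2.

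In 7 of 152 sets of 4 libraries (4.61%) 1 library stood apart from the other 3, where chance gives about 1 in 20. The gap to the nearest library, as a share of the range, was 0.929 for SNRPD3 in total sgLUC replicate 2 (148 CPM, others 155 to 155), 0.886 for SNRPG in total sgLUC replicate 1 (35.9 CPM, others 34.1 to 34.3) and 0.855 for LSM5 in total sgLUC replicate 2 (36.2 CPM, others 37.74 to 37.9992). In polysomal sgYBX1 replicate 2 it was 0.832 for SNRNP70 (1478 CPM, others 1755 to 1811), 0.878 for SF3A3 (503 CPM, others 576 to 586) and 0.958 for PRPF6 (1226 CPM, others 1454 to 1464). In polysomal sgYBX1 replicate 4 it was 0.926 for LSM1 (56.8 CPM, others 65.4 to 66.1).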

How the results depend on the processing

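With library totals in place of TMM factors the total change had 2 members higher and 1 lower, the polysomal change 18 lower with medians of −0.41 for the short and −0.092 for the long set, and the difference of changes 18 lower, 3371 calls among all genes and medians of −0.40 and −0.15. Polysomal against total RNA then had 14 members lower in sgLUC cells (medians 0.82 and −1.26) and 16 higher and 19 lower in sgYBX1 cells (0.17 and −1.35), and SNRPD3 reversed to −0.48 and −0.57. The share of all calls that were higher moved from 45.5% to 65.8% for the total change, from 55.3% to 26.0% for the polysomal change, from 58.8% to 20.1% for their difference, and from 47.9% to 26.6% in sgLUC and from 47.0% to 24.8% in sgYBX1 cells between fractions. RLE factors gave medians of 1.298 and −0.22 in sgYBX1 cells, and a split of the members at 1200 nucleotides gave −0.51 for the long ones. With 1 fit of all 16 libraries, which pools the spread of both fractions, the total change had 0 members lower and 136 calls among all genes, and the polysomal change 18 lower and 4639 calls. With no filter, a filter at 5 CPM or DESeq2, 1 member was higher in total RNA. With single libraries left out, members higher and lower ranged from 0 to 1 and 1 to 4 for the total change (1341 to 2897 calls among all genes), from 4 to 6 and 3 to 11 for the polysomal change (1705 to 2868), and from 4 to 7 and 4 to 10 for the difference, and the median of the short set between fractions in sgLUC cells was 1.57 to 1.70. The replicate block left 5 members higher and 9 lower in the polysomal change, 3 lower in the total change, and 4 higher and 6 lower in the difference. For the difference, the block joined same-numbered libraries of the 2 guides within each fraction. It did not join the total and polysomal libraries of a number, so pairing between fractions was not covered. Same-numbered libraries correlated between −0.25 and 0.47, with no pair of groups above 0.1 throughout and 0 to 2 of 4 libraries closest to their own number. The check therefore gave no pairing, and whether a number marks 1 culture is not stated in the labels. The cause of these shifts was not tested. The window relation over the 38 members was 0.51 with 30 and 0.58 with 120 nucleotides, both chosen after seeing the data. Sampling noise is largest, relative to the level, for members with low levels. Among the measured members the lowest means were those of LSM6 in polysomal RNA and of SNRNP27 and SNRPE in total RNA.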

Other observations

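The gene effect score, from a public CRISPR screen of MOLM13 in which a lower score means that cells with guides against the gene were lost, was listed for all 42 genes. Its median was −1.38 for the 42 genes and −0.05 for 18333 genes with a score. It was below −0.5 for 40 of the 42 (95.2%) and for 11.9% of all genes. The lowest scores were those of SNRPD1 (−2.37), SNRPF (−2.20) and SNRNP200 (−2.19). The 2 members above −0.5 were LSM1 (−0.11), the subunit particular to the cytoplasmic LSM ring, and SNRPA (−0.32), the U1-A protein. Among the members with called polysomal changes the score ranged from −1.85 for SNRPE to −0.52 for SNRPB2 and −0.53 for SF3B6, apart from SNRPB (−2.07). LSM2, PRPF8 and PRPF31, near 0 in the count table, had scores of −1.96, −1.77 and −1.74.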
